A study of Mus musculus with 9 samples.

Results

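The 7 cyclin-dependent kinase inhibitor genes of the CIP/KIP family (Cdkn1a, Cdkn1b, Cdkn1c) and the INK4 family (Cdkn2a, Cdkn2b, Cdkn2c, Cdkn2d) were followed in cultured fetal mouse ovaries. They were found by gene symbol among the 23420 genes of the count tables, and all 7 passed the filter on low counts that left 16360 genes for testing. Wild-type CD1 ovaries from embryonic day 16 spent 24 hours in culture, with vehicle in the control group, with recombinant human BMP2 at a concentration of 50 ng/ml in the second group, or with the oestrogen estradiol-17β (E2) at a concentration of 3.67 µM in the third, and each group gave 3 RNA-seq libraries. The medium of all groups was free of phenol red and held a modified insulin, transferrin and selenium supplement. A library's group rests on the prefix of its title (B2 read as BMP2, C as vehicle, and E2) alone, since no other label of a sample gives its treatment. Nothing in the labels ties replicates to separate animals or cultures, so the p-values reflect spread among these libraries alone, and that spread may be technical.

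Cyclin-dependent kinase (CDK) inhibitors are small proteins that hold cells back from division. The CIP/KIP proteins bind whole cyclin-CDK complexes of several kinds, whereas the INK4 proteins bind the monomeric kinases CDK4 and CDK6 and keep D-type cyclins away from them. In the fetal ovary, oocytes are in meiotic prophase while the pregranulosa cells that will surround them are withdrawing from the cell cycle, and p27, the product of Cdkn1b, is known as a marker of those arrested cells and as a restraint on follicle formation and activation.

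Library totals ran from 30418674 to 34320077 counts, and log2 CPM correlated at 0.9959 to 0.9967 within groups and 0.9913 to 0.9953 between groups. Markers of both main cell types of the ovary were present: all 10 germ cell markers and all 10 pregranulosa cell markers passed the filter, with Ddx4 at 177 CPM and Foxl2 at 56.5 CPM in the vehicle group. The counts come from whole ovaries, so fewer cells of a type and less RNA per cell cannot be told apart in any value given here.

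The inhibitors covered a wide range of levels, and the CIP/KIP gene Cdkn1c stood above all others. Scaled to the length of the merged exons, vehicle libraries held Cdkn1c at 320.8 ± 6.04 CPM per kb (mean ± SD, n = 3) and Cdkn1b at 33.4 ± 0.270 CPM per kb. Cdkn2d followed at 11.7 to 12.5 CPM per kb, Cdkn1a at 7.94 ± 0.386, Cdkn2a at 2.89 ± 0.346, Cdkn2b at 2.06 ± 0.134 and Cdkn2c at 0.925 ± 0.0756 CPM per kb. Averaged over the 9 libraries, Cdkn1c lay at percentile 99.5 and Cdkn2c at percentile 21.1 among 16211 tested genes with a known length. In each of the 9 libraries Cdkn1c alone made up 82.5% to 84.7% of the per-length sum of the family, and the 4 INK4 genes together 4.54% to 5.27%. Neighbours in this order did not overlap between libraries of the vehicle group, but the place of Cdkn1a and Cdkn2d depended on the length used. With the longest transcript in place of the merged exons, a choice made after seeing the data, vehicle values were 13.6 ± 0.660 CPM per kb for Cdkn1a and 13.3 ± 0.528 CPM per kb for Cdkn2d, which differ by less than their spread.

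**Figure D1:**
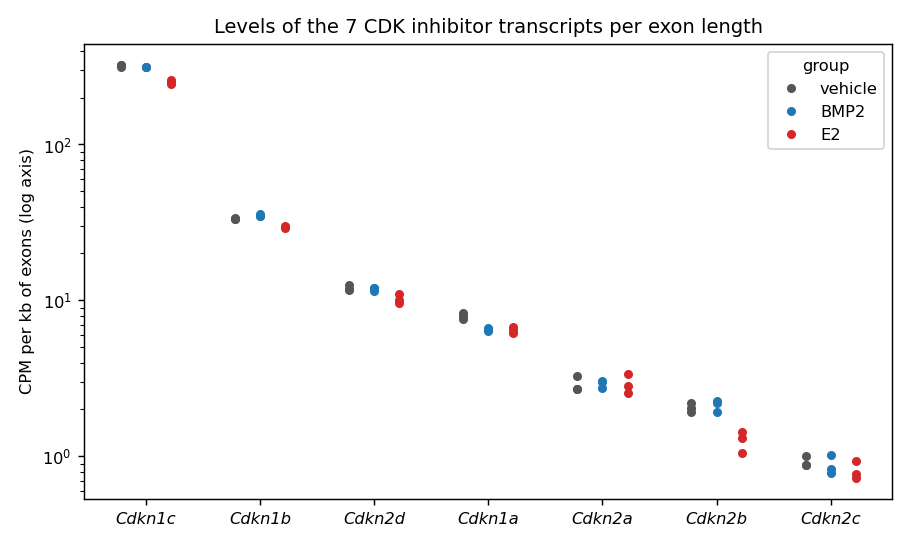
Levels of the 7 inhibitor transcripts in CPM per kb of merged exons on a log axis, 1 point per library, coloured by group. Genes are ordered by their vehicle mean, from Cdkn1c at 320.8 to Cdkn2c at 0.925 CPM per kb, and the E2 points of Cdkn1c, Cdkn1b and Cdkn2b lie below their vehicle points.

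Against vehicle, 5 of the 7 inhibitors were lower with E2, Cdkn1a, Cdkn1b, Cdkn1c, Cdkn2b and Cdkn2d, at an adjusted p under 0.05 in edgeR's quasi-likelihood test with Benjamini-Hochberg adjustment over all genes tested. Of all genes tested, 32.3% were called by the same rule, 16.5% lower and 15.8% higher. No inhibitor rose with E2, and Cdkn2a and Cdkn2c did not pass. With BMP2, Cdkn1a fell and Cdkn1b rose slightly, and the other 5 did not pass, where 13.7% of all genes were called in either direction (6.85% lower and 6.84% higher). Between the treatments, 4 inhibitors, Cdkn1b, Cdkn1c, Cdkn2b and Cdkn2d, were lower with E2 than with BMP2, where 28.2% of all genes were called and 14.1% were lower. The libraries of the groups compared did not overlap for 2 inhibitors with BMP2, 5 with E2 and 4 between the treatments, where they did not overlap for 28.0%, 41.2% and 39.6% of all genes. The comparisons with vehicle share the same 3 vehicle libraries. The median log2 fold change of the 7 inhibitors was -0.23 with E2 and -0.016 with BMP2, beside -0.0026 and -0.0015 for all genes tested.

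**Figure D2:**
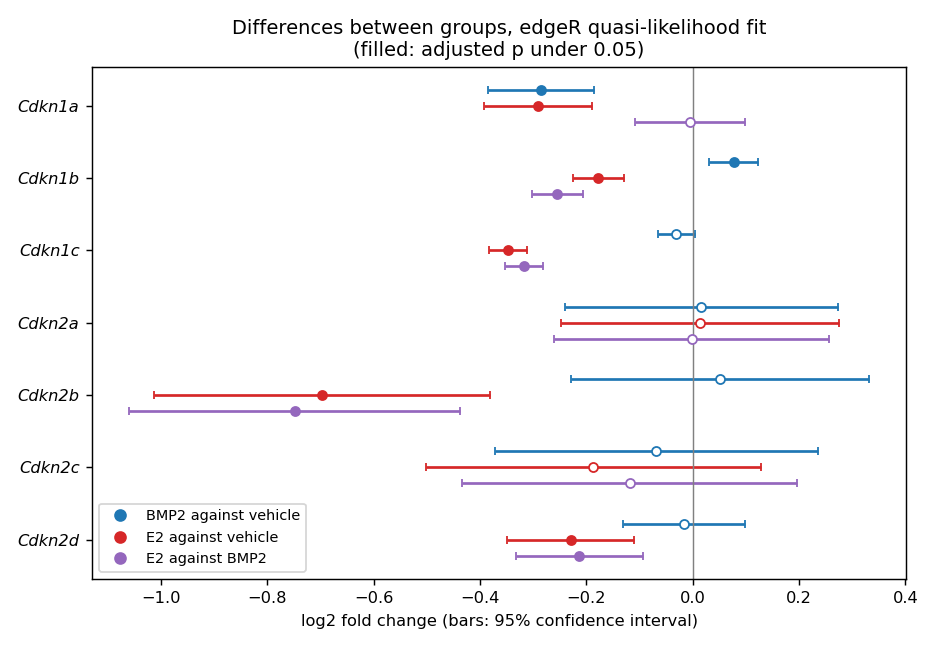
Log2 fold change of each inhibitor in the 3 comparisons of the groups, with 95% confidence intervals from the edgeR fit and filled points for an adjusted p under 0.05. The E2 interval of Cdkn2b runs from -1.01 to -0.38, while both treatments place Cdkn1a at the same distance below vehicle and Cdkn2a is centred near 0 throughout.

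Cdkn1c encodes p57, an inhibitor made from the maternal copy of an imprinted gene and known for arresting differentiating cells of the embryo. It lies on the minus strand of chromosome 7 from 143458339 to 143461050 (GRCm38, GENCODE vM21). Its level was 663, 660 and 640.0 CPM in the vehicle libraries, 637, 642 and 642 CPM in the BMP2 libraries, and 499.6, 528 and 514 CPM in the E2 libraries. All E2 libraries lay below all others, whereas BMP2 overlapped vehicle. E2 against vehicle gave a log2 fold change of -0.35 ± 0.018 (SE; adjusted p = 1.23e-38), 1.27-fold lower, and E2 against BMP2 gave -0.32 ± 0.018 (adjusted p = 7.12e-35). BMP2 against vehicle gave -0.031 ± 0.018 with a 95% interval from -0.066 to 0.0048 (adjusted p = 0.283). An antisense gene, Gm44732, not analysed here, covers 30.7% of the exon bases of Cdkn1c, and because the library kit does not mark strand, its reads cannot be told apart there. No promoter window is shown for Cdkn1c.

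Cdkn1b, the gene of p27, lies on the plus strand of chromosome 6 from 134920401 to 134925513, and no other gene of GENCODE vM21 overlaps its exons. The vehicle libraries held 152, 151 and 153 CPM, the BMP2 libraries 159, 158 and 164 CPM, and the E2 libraries 137, 134 and 133 CPM. The 3 groups were fully separated, with E2 lowest and BMP2 highest. E2 was 1.13-fold below vehicle (log2 fold change -0.18 ± 0.024 SE, adjusted p = 3.12e-10) and 1.19-fold below BMP2 (-0.25 ± 0.024, adjusted p = 5.37e-18). BMP2 was 1.05-fold above vehicle (0.077 ± 0.024, adjusted p = 0.0155). This call was lost when BMP2 replicate 3 was left out (adjusted p = 0.131), and likewise vehicle replicate 1 (0.0536) or vehicle replicate 2 (0.0515). Over 18 alternatives the adjusted p of Cdkn1b ranged from 0.00701 to 0.131.

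Cdkn1b was called with both treatments, in opposite directions, so the bases before its start are shown. Its BMP2 call was small and, as given above, did not hold when some single libraries were left out. The window at chr6:134920151-134920400 (plus strand, GRCm38.p6, RefSeq) ends at the base before the start, and capitals mark the GC-rich SMAD box GGCGCC and the GC box GGGCGG.
Cdkn1b: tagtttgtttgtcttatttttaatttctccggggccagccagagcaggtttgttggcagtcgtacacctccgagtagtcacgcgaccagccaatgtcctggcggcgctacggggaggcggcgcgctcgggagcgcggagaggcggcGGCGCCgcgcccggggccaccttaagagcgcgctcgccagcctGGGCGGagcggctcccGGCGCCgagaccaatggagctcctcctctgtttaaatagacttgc
The SMAD box begins at positions -104 and -45 from the start, with the GC box at -61 between them. On either strand, 9.59% of 32851 RefSeq windows of this length hold GGCGCC and 32.7% hold GGGCGG, so neither is rare. The letters of these boxes can overlap each other, and matches were counted for each motif alone. Of the 9 windows of the inhibitors, 3 hold the first and 5 the second. Both motifs are made of G and C alone. The inhibitor windows that hold them are 63.6% to 78.4% G and C, beside a median of 52.4% over all windows. Enrichment was not tested.

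Cdkn1a encodes p21, which p53 and many stress and differentiation signals induce. It lies on the plus strand of chromosome 17 from 29090976 to 29100727, and an unclassified opposite-strand gene, not analysed here, covers 7.68% of its exon bases. The vehicle libraries held 28.3, 29.6 and 26.8 CPM, the BMP2 libraries 22.8, 23.0 and 23.6 CPM, and the E2 libraries 22.03, 24.1 and 23.0 CPM. All 6 treated libraries lay below all 3 vehicle libraries, and the treated groups overlapped. BMP2 stood 1.22-fold below vehicle, a log2 difference of -0.29 ± 0.050 (SE; adjusted p = 3.54e-06). E2 stood equally far below, at -0.29 ± 0.051 (adjusted p = 8.18e-07). The direct comparison of E2 with BMP2 gave -0.0050 ± 0.052, and its 95% interval from -0.11 to 0.099 bounds how far the treatments could differ. The next gene, Rab44, a Rab GTPase gene 13418 bases away, rose with E2 by a log2 fold change of 0.84 ± 0.12 (adjusted p = 3.76e-09) while Cdkn1a was lower.

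Cdkn1a has start sites 2790 bases apart in RefSeq, and the window before the outer one holds a palindrome of the p53 type. It lies at chr17:29090928-29090947 (plus strand, GRCm38.p6), and capitals mark the motif searched, ACATGT at 2 places with 4 bases between, which 4 of 32851 windows (0.0122%) hold. That share is of this exact spelling alone. Other spellings of p53-type elements were not searched, so it does not measure how rare such elements are.
Cdkn1a, outer start: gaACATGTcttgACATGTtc
The window before the inner start, at chr17:29093519-29093768 (plus strand), is GC-rich instead, and capitals mark GGGCGG.
Cdkn1a, inner start: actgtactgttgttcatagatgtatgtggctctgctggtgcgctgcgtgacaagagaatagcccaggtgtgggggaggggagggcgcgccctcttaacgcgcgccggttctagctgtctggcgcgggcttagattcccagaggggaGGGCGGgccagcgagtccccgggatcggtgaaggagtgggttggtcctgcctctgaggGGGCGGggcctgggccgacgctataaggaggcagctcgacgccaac
The counts are summed per gene, so they do not tell which start was used. The full oestrogen response element, GGTCA and TGACC with 3 bases between, was in none of the 9 windows of the inhibitors and in 0.0639% of all windows, and the single arm AGGTCA, which a full element may contain, was in 2 of the 9 and in 14.0% of all. These matches describe letters within 250 bases of a start and nothing beyond.

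**Figure D3:**
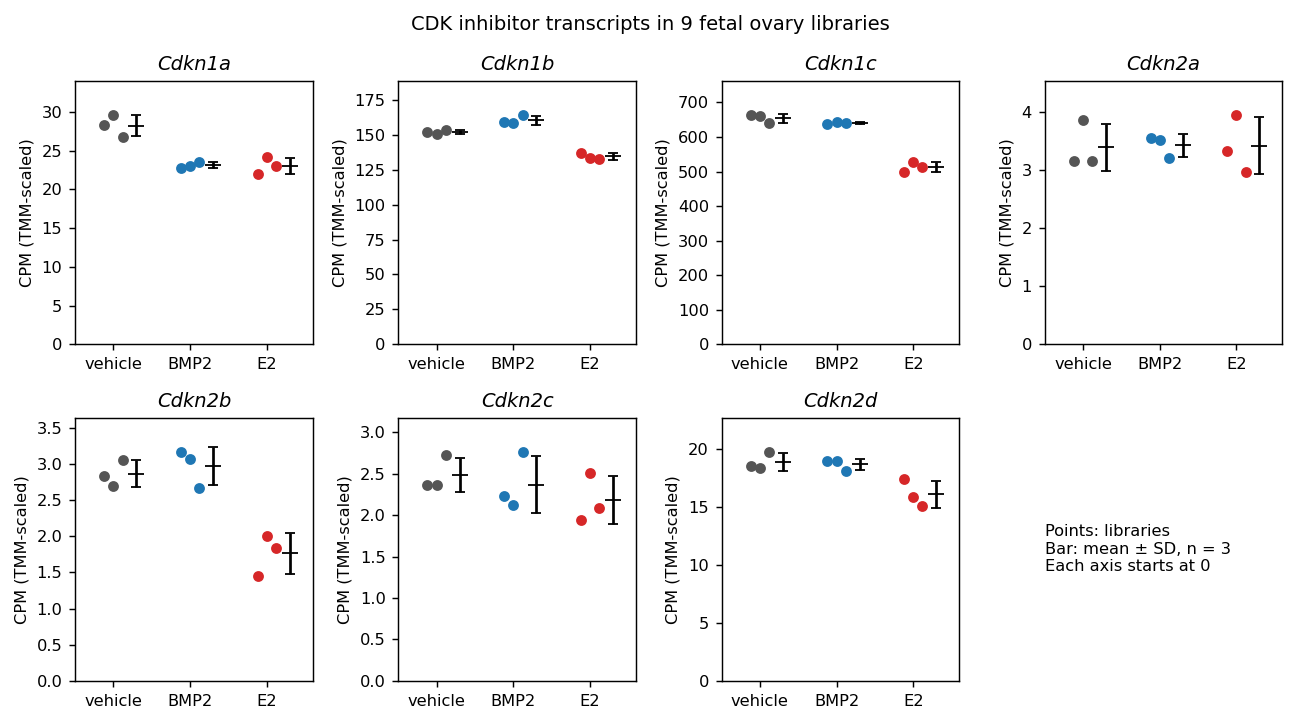
TMM-scaled CPM of each inhibitor in every library, 1 panel per gene with an axis from 0, points for libraries and bars for mean ± SD (n = 3). E2 points lie below all vehicle points for Cdkn1a, Cdkn1b, Cdkn1c, Cdkn2b and Cdkn2d, while the groups overlap for Cdkn2a and Cdkn2c.

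Among the INK4 genes the widest difference was that of Cdkn2b, which encodes p15 and is a known target of TGFβ. It lies on the minus strand of chromosome 4 from 89306299 to 89311039. The vehicle libraries held 2.84, 2.69 and 3.06 CPM, the BMP2 libraries 3.16, 3.07 and 2.67 CPM, and the E2 libraries 1.45, 2.00 and 1.83 CPM, on 44 to 108 reads per library. The E2 libraries lay below the other 6, which overlapped each other. E2 was 1.62-fold below vehicle (log2 fold change -0.70 ± 0.16 SE, adjusted p = 1.81e-04) and 1.68-fold below BMP2 (-0.75 ± 0.16, adjusted p = 4.66e-05). With BMP2 the log2 fold change was 0.051, with a 95% interval from -0.23 to 0.33 (adjusted p = 0.866).

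Cdkn2a, 11646 bases away on the same strand, did not pass in any comparison. This gene, at 89274471 to 89294653, has an outer and an inner first exon that give p19ARF, a guard of p53, and p16INK4a, and its single count pools both. The vehicle libraries held 3.16, 3.86 and 3.15 CPM, the BMP2 libraries 3.54, 3.52 and 3.20 CPM, and the E2 libraries 3.33, 3.94 and 2.97 CPM. All 3 groups overlapped. The E2 log2 fold change of Cdkn2a was 0.014 with a 95% interval from -0.25 to 0.28 (adjusted p = 0.953), and that interval does not reach the one of Cdkn2b, -1.01 to -0.38. The difference between the genes was not tested. With BMP2 the interval of Cdkn2a was -0.24 to 0.27 (adjusted p = 0.959). Beyond Cdkn2b, Dmrta1, a DMRT-family gene, did not pass with E2 (log2 fold change 0.11, adjusted p = 0.177), and Mtap, a purine salvage gene on the other side of Cdkn2a, was slightly lower (-0.099 ± 0.038, adjusted p = 0.0340).

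Because Cdkn2b was called and its neighbour was not, the windows before the start of Cdkn2b and the outer start of Cdkn2a are set side by side, at chr4:89311033-89311282 and chr4:89294620-89294869 (both minus strand, GRCm38.p6, RefSeq), with GGGCGG and GGCGCC in capitals.
Cdkn2b: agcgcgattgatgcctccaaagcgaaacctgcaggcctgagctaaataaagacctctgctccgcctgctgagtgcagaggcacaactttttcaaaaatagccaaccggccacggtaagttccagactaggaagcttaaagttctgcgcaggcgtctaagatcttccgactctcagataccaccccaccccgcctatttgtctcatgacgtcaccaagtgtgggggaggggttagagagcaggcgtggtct
Cdkn2a, outer start: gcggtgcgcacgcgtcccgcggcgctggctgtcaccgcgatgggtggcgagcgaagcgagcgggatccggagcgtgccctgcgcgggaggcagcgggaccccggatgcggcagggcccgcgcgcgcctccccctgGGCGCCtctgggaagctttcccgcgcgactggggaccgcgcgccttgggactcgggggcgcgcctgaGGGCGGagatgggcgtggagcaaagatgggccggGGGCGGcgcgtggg
The Cdkn2b window is 53.6% G and C, near the median of 52.4% over all windows, and holds none of the 5 motifs searched. The outer Cdkn2a window is 78.4% G and C and holds GGGCGG at 2 places and GGCGCC at 1. The window before its inner start, that of p16INK4a, is 60% G and C. It holds AGGTCA at 1 place and neither GGGCGG nor GGCGCC, so the contrast with Cdkn2b depends on the start chosen. Whether any window bears on the difference between the genes was not tested. The 9 windows of the inhibitors ranged from 42.8% to 78.4%.

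Cdkn2d encodes p19INK4d, known in postmitotic cells of several tissues, and lies on the minus strand of chromosome 9 from 21288410 to 21291407. The vehicle libraries held 18.6, 18.3 and 19.7 CPM, the BMP2 libraries 18.98, 18.9 and 18.1 CPM, and the E2 libraries 17.4, 15.9 and 15.1 CPM. The E2 libraries lay below the others, and BMP2 overlapped vehicle. E2 was 1.17-fold below vehicle (log2 fold change -0.23 ± 0.061 SE, adjusted p = 0.00131) and 1.16-fold below BMP2 (-0.21 ± 0.060, adjusted p = 0.00320), and the latter did not pass without E2 replicate 3 (adjusted p = 0.0543; range over 18 alternatives 8.38e-04 to 0.0543). With BMP2 the log2 fold change of Cdkn2d was -0.016, with a 95% interval from -0.13 to 0.099 (adjusted p = 0.903). The gene Kri1 begins 441 bases past the end of Cdkn2d on the same strand, and with E2 its log2 fold change was 0.098 ± 0.050 (adjusted p = 0.132).

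Cdkn2c, the gene of p18, was the least abundant per length and lies on the minus strand of chromosome 4 from 109660876 to 109667189. Its level was 2.37, 2.37 and 2.72 CPM in the vehicle libraries, 2.23, 2.12 and 2.76 CPM in the BMP2 libraries, and 1.95, 2.51 and 2.09 CPM in the E2 libraries. All groups overlapped, on 59 to 95 reads per library. The log2 fold change was -0.19 with E2 (95% interval -0.50 to 0.13, adjusted p = 0.403) and -0.068 with BMP2 (-0.37 to 0.24, adjusted p = 0.834), and the E2 interval includes the log2 fold change of Cdkn1c, -0.35.

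Partners and targets of the inhibitors are described by their counts beside the share called among all genes, 13.7% with BMP2 and 32.3% with E2. Of 12 G1 cyclins and kinases, 5 fell with BMP2 (41.7%) and 4 with E2, and none rose with either. The E2 share, 33.3%, is near that of all genes called in either direction. By direction, 6.85% of all genes were called lower with BMP2 and 16.5% with E2. Ccnd1, the gene of cyclin D1, fell 1.25-fold with BMP2 (25.2 ± 0.920 against 31.6 ± 1.39 CPM, adjusted p = 2.67e-08) and 1.24-fold with E2 (25.5 ± 0.953 CPM, adjusted p = 5.31e-08). Cdk6, a kinase that the INK4 proteins bind, fell with BMP2 by 0.34 on the log2 scale (adjusted p = 3.03e-05) but stood at -0.0096 with E2 (adjusted p = 0.932), and the direct comparison put it 1.26-fold higher with E2 (adjusted p = 1.96e-05). With E2 the other D-type cyclins fell too, Ccnd2 by 0.15 and Ccnd3 by 0.22 on the log2 scale. The BMP2 count dropped to 3 without BMP2 replicate 1, BMP2 replicate 3 or vehicle replicate 1.

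Genes of DNA replication that E2F factors drive fell with both treatments, 7 of 14 with BMP2 (50.0% called) and 8 of 14 with E2, where 1 rose (64.3% called). Pcna, the sliding clamp of DNA polymerases, had log2 fold changes of -0.13 with BMP2 and -0.16 with E2. Of 16 genes of G2 and mitosis, 5 fell with BMP2, and 4 fell and 1 rose with E2, among those lower in both Top2a (-0.16 and -0.16), a topoisomerase of dividing cells, and Mki67 (-0.11 and -0.082), the proliferation antigen. For mitosis 31.2% were called with each treatment, which with E2 is close to the share of all genes. The list medians were -0.11 and -0.11 for replication and -0.084 and -0.055 for mitosis with BMP2 and E2. Between the treatments 0 of the 16 mitosis genes passed by edgeR, 0 by DESeq2 and 1 at an unadjusted p under 0.05. The replication count with BMP2 was 4 without BMP2 replicate 1, BMP2 replicate 3 or vehicle replicate 2, and the mitosis count fell to 3 without BMP2 replicate 1 (BMP2) or vehicle replicate 2 (E2). Of 15 pocket protein and E2F genes, 1 rose with BMP2 (Tfdp2, 0.077), and with E2 4 rose, E2f6 the furthest by p (0.19), and Rbl1, a pocket protein gene, fell (-0.13). No gene of the list was called with BMP2 without BMP2 replicate 1, BMP2 replicate 3 or vehicle replicate 2. The 5 calls with E2, 33.3% of the list and again near all genes, became 3 without vehicle replicate 2 or E2 replicate 3.

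Of 22 genes of p53 and its targets, 3 rose and 1 fell with BMP2 (18.2% called), and 7 rose and 6 fell with E2 (59.1% called). Trp53, the gene of p53, fell by 0.15 on the log2 scale with BMP2 (SE 0.029, adjusted p = 1.98e-05) and did not pass with E2 (0.0078, adjusted p = 0.872). Eda2r, a TNF receptor family gene and p53 target, rose 2.63-fold with E2 (30.9 ± 0.768 against 11.7 ± 0.287 CPM, adjusted p = 1.69e-48), while Btg2, an antiproliferative p53 target, fell 1.38-fold with E2 and rose 1.11-fold with BMP2. Of 14 genes for ubiquitin ligases and FOXO factors that act on p27 and p21, 2 rose and 3 fell with BMP2 (35.7% called), and 2 rose and 1 fell with E2. The E2 share, 21.4%, is below that of all genes. Foxo4 fell with E2 (log2 fold change -0.36 ± 0.037 SE, adjusted p = 7.76e-16), whereas Foxo1 (0.23) and Foxo3 (0.15), whose product restrains primordial follicles, rose. The count of 5 with BMP2 was 2 without BMP2 replicate 1, 2 or 3 or vehicle replicate 1, and 3 without vehicle replicate 2. Polycomb complexes are known to silence the Cdkn2a and Cdkn2b locus, but the Polycomb list also holds Kdm6b, whose product removes a Polycomb mark. Of the 16 genes of this list, 0 were called with BMP2 by edgeR or DESeq2, with 6 at an unadjusted p under 0.05. That count was 1 without BMP2 replicate 1 and 2 without vehicle replicate 2 or 3. With E2, Bmi1 rose (0.13) and 4 genes fell, among them Phc2 (-0.18) and Kdm6b (-0.17), in all 31.2% of the list and near the share of all genes.

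**Figure D4:**
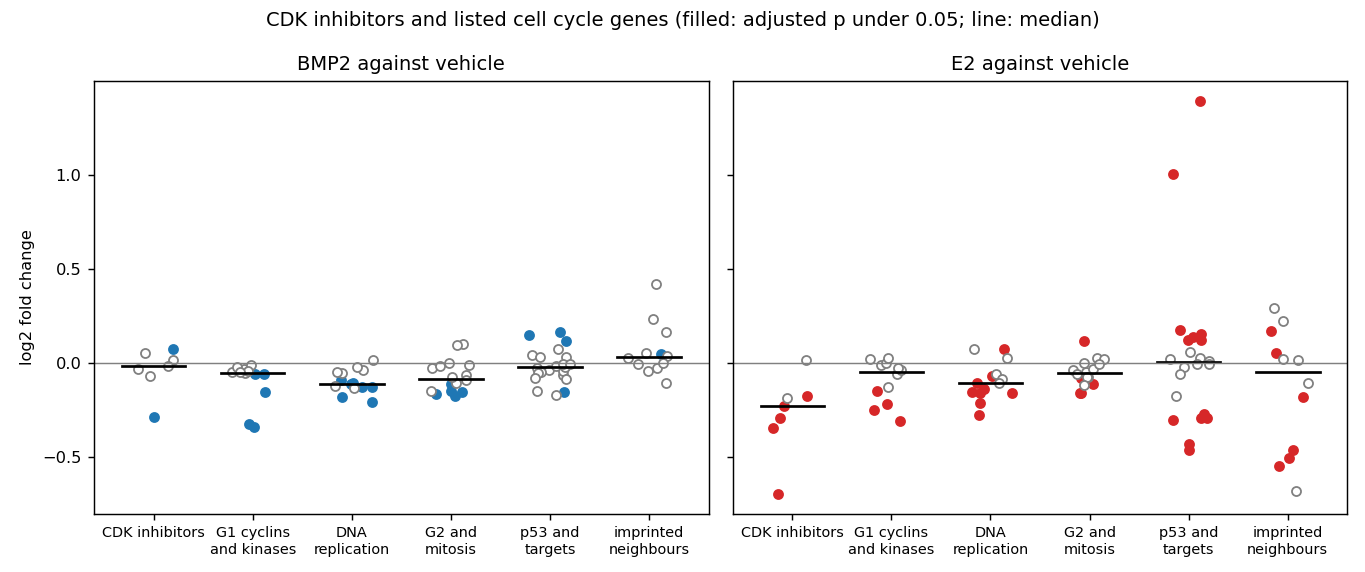
Log2 fold change of every tested gene of 6 lists with BMP2 (left) and E2 (right) against vehicle, with filled points for an adjusted p under 0.05 and a line at each list's median. The inhibitors' median is -0.016 with BMP2 and -0.23 with E2, and the replication medians are -0.11 in both.

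Cdkn1c shares its region of chromosome 7 with other genes, imprinted ones among them, and with E2 some of these genes fell while others rose or were not called. Which of them are imprinted in the ovary was not examined. H19, an imprinted noncoding RNA, stood at 2050 ± 18.5 CPM with E2 against 2998 ± 15.5 CPM with vehicle (log2 fold change -0.55 ± 0.014 SE, adjusted p = 1.70e-73), and Igf2, a fetal growth factor gene, at 643 ± 0.679 against 911 ± 18.8 CPM (-0.50 ± 0.017, adjusted p = 1.31e-59). Kcnq1ot1, the noncoding RNA that silences Cdkn1c on the paternal chromosome, rose 1.12-fold (116 ± 0.804 against 103 ± 1.52 CPM, adjusted p = 7.02e-08). Of 12 tested neighbours, 2 rose with E2 (Kcnq1ot1 and Nap1l4) and 4 fell (H19, Igf2, Osbpl5 and Tspan32). This was 50.0% called, beside 32.3% of all genes. With BMP2 only H19 was called, slightly higher (0.045, adjusted p = 0.0165), or 8.33% of the list beside 13.7% of all genes. That call did not hold without BMP2 replicate 1, BMP2 replicate 2 or vehicle replicate 1. The nearest counted genes, Kcnq1 at 31297 bases and Slc22a18 at 12686 bases, did not pass with E2 (log2 fold changes 0.014 and 0.23, adjusted p = 0.928 and 0.532). Kcnq1 and Kcnq1ot1 overlap on opposite strands, so reads from bases they share cannot be told apart. How large that part is was not examined.

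Markers of cell types are described in the same comparisons, where 32.3% of all genes were called with E2 and 13.7% with BMP2. With E2 the share called was 25.0% for smooth muscle and pericyte markers, below that of all genes. For mesonephric tubule markers it was 33.3%, near that of all genes. All 8 markers of surface epithelium and mesothelium were lower with E2, their summed level being 429 to 436 CPM against 624 to 649 CPM with vehicle, and all 8 were lower with BMP2 (545 to 558 CPM). Macrophage markers summed to 72.5 to 73.1 CPM with E2 against 84.7 to 87.0 CPM with vehicle, with 5 of 8 lower. Of 10 pregranulosa markers 3 rose and 3 fell with E2 (sums 1889 to 1904 against 2057 to 2102 CPM). The lower sum is that of Kitl, the gene of KIT ligand, at 776 against 978 CPM, since the other 9 summed to 1119 to 1125 CPM with E2 and 1095 to 1109 CPM with vehicle. Of 10 germ cell markers 6 rose and none fell with E2 (sums 1894 to 1914 against 1782 to 1891 CPM). Without Mael, at 208 against 180 CPM, the sums of the other 9 overlapped, at 1689 to 1703 CPM with E2 and 1604 to 1709 CPM with vehicle. The abundant markers Sycp1, Dazl and Sycp3 were not called. All 5 tested erythroid markers rose with E2 (31.7 to 35.1 against 20.1 to 21.8 CPM). Endothelial markers summed to 227 to 239 CPM with E2 against 226 to 233 CPM with vehicle, with 6 of 8 higher and 1 lower. Kdr was the lower one, at 87.9 against 110 CPM. The other 7 summed to 142 to 148 CPM with E2 and 116 to 122 CPM with vehicle. Smooth muscle and pericyte markers summed to 548 to 558 against 409 to 422 CPM, with 1 of 8 higher and 1 lower. Myh11, a smooth muscle myosin gene, alone made this difference, at 202 against 59.6 CPM, and the other 7 summed to 348 to 352 CPM with E2 and 349.9 to 363 CPM with vehicle. Stroma markers (4 of 8 higher, 4 lower) and mesonephric tubule markers (2 of 6 tested lower) summed to 778 to 793 and 131 to 140 CPM with E2, against 881 to 907 and 151 to 156 CPM. With BMP2, 6 of 10 germ cell markers (sums 1871 to 1936 CPM), 2 of 5 tested erythroid markers (26.2 to 27.2 CPM) and 2 of 8 endothelial markers (229 to 236 CPM) rose. Lower with BMP2 were 3 of 8 smooth muscle and pericyte markers (Acta2, Tagln and Des, list sums 375 to 376 CPM), 3 of 8 stroma markers (sums 849.98 to 861 CPM) and 2 of 6 tested mesonephric markers (Cdh16 and Gata3, sums 148 to 152 CPM). Of 10 pregranulosa markers 3 rose and 3 fell (2074 to 2093 CPM), and 0 of 8 macrophage markers were called by edgeR, with 2 at an unadjusted p under 0.05. No marker of these lists was at 0 in every library except 2 globin genes. The part of these markers in the differences of the inhibitors was not tested.

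Correlations across the 9 libraries are given as a description, since these libraries share treatments and the genes share libraries and depth. Log2 CPM of Cdkn1c correlated with that of Cdkn2b at r = 0.94, of Cdkn1b at 0.90 and of Cdkn2d at 0.81, and with Cdkn1a at 0.59 and Cdkn2a at 0.069. Among 13453 other genes, the nearest to Cdkn1c were Prss35 (r = 0.993), a gene of the serine protease family with a log2 fold change of -0.82 with E2, and Sik1 (0.993), a salt-inducible kinase gene. Nearest to Cdkn1b were Slc37a1 (0.993) and Kcnt1 (0.988), which like it stood above vehicle with BMP2 (0.18 and 0.12) and below with E2 (-0.31 and -0.27). Cdkn1a lay nearest to Saal1 (0.986) and Rps29 (0.986), Cdkn2b to Sh3d21 (0.987) and Lars2 (0.979), and Cdkn2d to Ndrg1 (0.968) and Ap3s2 (0.968). Cdkn2a lay near Snx21 (0.960), and Cdkn2c nearest to Pigh (0.923) and Trem2 (0.907), although counts of Cdkn2a and Cdkn2c were low.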

How the data were processed

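The authors deposited a table of unnormalized read counts for each library. Per the submitters' processing notes, TopHat2, HTSeq and DESeq2 were used with the build mm10; neither versions, annotation nor strand setting were found in the labels. Groups were read from title prefixes. Rows for reads given to no gene (38.2% to 39.7% of a library) were left out. Tests used edgeR 4.0.16 under R 4.3.3, with filterByExpr defaults, TMM scaling and a robust quasi-likelihood fit of all 9 libraries. Benjamini-Hochberg adjustment covered 16360 genes, and an adjusted p under 0.05 was a call. Each standard error is the absolute log2 fold change over the root of the F statistic, and intervals cover 95%. The fit was also run on simulated counts that gave every gene the common dispersion, a simpler spread than that of the data. Their outcome is not given here, and no result rests on it. CPM is TMM-scaled; correlations use log2 CPM with a prior count of 2. Gene models are GENCODE vM21 (GRCm38, equal to mm10). Sequences are RefSeq windows of 250 bases before each start, GRCm38.p6, matched by symbol for 6 of 7 inhibitors; motifs were searched on both strands.

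Genes named are all 7 inhibitors, the 2 genes most correlated with each (not a predicted gene, mean CPM of at least 1), up to 3 called genes per list with the smallest p against vehicle, and overlapping or adjacent genes; a gene correlated with Cdkn2a is not reported here. Rbl1, Nap1l4, Osbpl5, Tspan32 and all marker genes were named after their values were seen. The members and lists (205 entries, 204 found) were chosen with earlier results of these data known. Alternatives were DESeq2 1.42.0, median-ratio factors, other filters, only the groups compared, a replicate block, an offset for GC content and length (99.1% of tested genes had both), an adjusted p under 0.01, and leaving out each library.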

Additional observations from a re-analysis of the deposited data

How the results depend on the processing

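The 5 inhibitors lower with E2 than vehicle, and Cdkn1a lower with BMP2, kept their direction and stayed past the threshold under all 18 alternatives; with E2 the log2 fold change ranged from -0.80 to -0.58 for Cdkn2b and from -0.37 to -0.29 for Cdkn1c. The number of inhibitors called was 1 to 2 with BMP2, 5 with E2 and 3 to 4 for E2 against BMP2 when each library was left out in turn, and 1 with BMP2 at an adjusted p under 0.01. Genes called between BMP2 and vehicle numbered 1409 by DESeq2 and 1318 at an adjusted p under 0.01, beside 2239. For the pathway lists, DESeq2 called 4 replication genes and 1 ubiquitin ligase or FOXO gene with BMP2 (beside 7 and 5) and 3 pocket protein and E2F genes with E2 (beside 5). Changes of sign were limited to values that did not pass. Leaving out each library in turn gave ranges, with BMP2 against vehicle, of -0.033 to 0.12 for Cdkn2a, -0.19 to 0.0060 for Cdkn2c and -0.035 to 0.017 for Cdkn2d, and with E2 against vehicle of -0.10 to 0.11 for Cdkn2a. For E2 against BMP2 the ranges were -0.039 to 0.026 for Cdkn1a, -0.12 to 0.091 for Cdkn2a and -0.23 to 0.0076 for Cdkn2c. With the GC and length offset Cdkn1a was 0.017 and Cdkn2a 0.045 in that comparison, and with the replicate block added 0.017 and 0.042. The cause of these sign changes was not tested.

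Same-numbered libraries did not deviate together (correlations -0.031 to 0.027), so the numbers were not taken as pairs. With the replicate block 2512, 5512 and 4875 genes were called for BMP2 and E2 against vehicle and E2 against BMP2, beside 2239, 5278 and 4607, and no call of an inhibitor changed. Precision was lowest for Cdkn2a, Cdkn2b and Cdkn2c, with 44 to 124 reads per library.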
